A study of Mus musculus with 24 samples.

Results

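The circadian clock genes described here are Per1, Per2, Per3, Cry1, Cry2, Clock, Arntl, Nr1d1, Nr1d2 and Dbp. They were taken as the rows of the count tables whose Ensembl mouse gene carries one of these symbols, and all 10 were found. They are 10 of 46603 Ensembl gene identifiers and of 126602 features in all, the other 79999 features being loci assembled from the reads. Mouse retinal organoids (MROs), retinal tissue grown from pluripotent stem cells, were profiled by RNA sequencing at days 20, 22, 25 and 30 of culture (D20, D22, D25 and D30). The 24 MROs, 6 single organoids per timepoint, all came from wildtype E14Tg2a mouse embryonic stem cells, carried the genotype label Control, had received only the solvent water, and belonged to 1 independent experiment. They were made with the trisection protocol, in which young organoids are cut by hand into pieces that then mature in medium with serum, after a period with the synthetic retinoid analog EC23. Each organoid was lysed whole, so every value is a mixture of all its cells, and a level that differs because fewer cells of a type were present cannot be told apart from one that differs because each cell held less RNA. Neither the hour of sampling nor the time since the last change of medium is given in the sources used here, and a difference in either between timepoints cannot be told apart from the day of culture.

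The circadian clock is a transcription loop that runs in most mammalian cells, the retina included. CLOCK and ARNTL (also called BMAL1) bind E-boxes as a pair and activate the Per and Cry genes, whose proteins return to the nucleus and inhibit that pair. In a second loop NR1D1 and NR1D2 (REV-ERB alpha and beta) repress Arntl through ROR response elements, against activators of the ROR family, and DBP drives further genes through D-boxes. In a tissue whose cells keep time together these transcripts rise and fall over the day, with Arntl high when Nr1d1, Per and Dbp are low, while cells out of phase with each other leave flat averages.

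Promoter sequences of RefSeq (build GRCm38.p6), which run from 250 bases before to 50 bases after a transcript's start, were given for 9 of the 10 genes in 13 windows, all but Per2. They were searched on both strands for the E-box CACGTG, the noncanonical E-box CACGTT, the D-box as TTATGTAA or TTACGTAA, and the ROR response element as AAAGGTCA, ATAGGTCA, TAAGGTCA or TTAGGTCA. The 250 bases before the start are shown for the 4 genes that differed between timepoints and for Cry1, which is compared with Cry2, with the matches in capitals (AACGTG is CACGTT read on the other strand).
Per3 (chr4:151044666-151044915, minus strand): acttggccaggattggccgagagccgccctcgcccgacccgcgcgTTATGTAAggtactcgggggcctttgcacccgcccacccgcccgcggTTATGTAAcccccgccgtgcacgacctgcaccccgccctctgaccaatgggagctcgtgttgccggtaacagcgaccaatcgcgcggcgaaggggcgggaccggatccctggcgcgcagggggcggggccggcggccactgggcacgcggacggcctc
Cry1 (chr10:85185055-85185304, minus strand): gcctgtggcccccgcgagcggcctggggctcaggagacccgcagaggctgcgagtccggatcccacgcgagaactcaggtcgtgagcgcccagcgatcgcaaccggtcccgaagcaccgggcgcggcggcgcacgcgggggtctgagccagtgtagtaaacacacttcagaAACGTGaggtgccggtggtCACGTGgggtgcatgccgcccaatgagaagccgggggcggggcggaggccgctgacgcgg
Cry2 (chr2:92434070-92434319, minus strand): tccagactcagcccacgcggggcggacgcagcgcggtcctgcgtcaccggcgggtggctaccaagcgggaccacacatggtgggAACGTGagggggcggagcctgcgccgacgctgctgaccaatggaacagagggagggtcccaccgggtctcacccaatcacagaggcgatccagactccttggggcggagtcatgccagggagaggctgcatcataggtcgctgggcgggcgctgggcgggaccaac
Nr1d1 (chr11:98775378-98775627, minus strand): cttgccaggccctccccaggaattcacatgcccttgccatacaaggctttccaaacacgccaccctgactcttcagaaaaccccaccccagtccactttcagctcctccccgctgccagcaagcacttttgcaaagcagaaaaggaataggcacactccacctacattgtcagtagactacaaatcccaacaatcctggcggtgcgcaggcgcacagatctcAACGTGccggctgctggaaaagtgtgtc
Arntl (chr7:113207215-113207464, plus strand): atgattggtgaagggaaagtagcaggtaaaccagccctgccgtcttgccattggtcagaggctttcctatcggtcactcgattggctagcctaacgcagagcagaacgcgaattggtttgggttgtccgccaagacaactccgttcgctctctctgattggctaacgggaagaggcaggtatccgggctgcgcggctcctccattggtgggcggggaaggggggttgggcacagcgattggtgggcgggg
The Per3 window held 2 D-boxes, beginning 205 and 158 bases before the start, where 1.06% of all 32851 mouse promoter windows held any. The Cry1 window held an E-box 60 bases and a noncanonical E-box 79 bases before the start, and the windows of Cry2 and Nr1d1 held a noncanonical E-box each, 166 and 28 bases before it. The more upstream of the Per1 windows held an E-box 166 bases before its start. Over all windows, 7.15% held an E-box, 4.68% a noncanonical E-box and 3.38% a ROR response element. None of these words occurred in the windows of Arntl, Clock, Nr1d2 or Dbp, and no 2 matches overlapped. The bases shown for Arntl are those of the more upstream of its windows. Other forms of these elements and sites outside the windows were not searched, so a window without a match may still hold such an element.

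The 24 count tables held 13634846 to 19477108 counted reads per MRO, and a count of 3 was worth 0.154 to 0.22 CPM, counts scaled by the size of the library. After features with a base mean under 10 were set aside, 46949 features were tested, 16253 of them annotated genes, with all 24 MROs in one edgeR quasi-likelihood fit and Benjamini-Hochberg adjustment over every tested feature. An adjusted p below 0.01 counts as passing. All 10 clock genes were tested. Their mean counts per MRO ran from 130 for Nr1d1 to 3295 for Clock. The genes share transcribed bases with a neighbour on the other strand in 4 cases, and whether the counting used strand is not given in the sources used here. Nr1d1 shares 263 exon bases with Thra, Dbp 539 with Sphk2, Cry2 295 with D930015M05Rik and Arntl 33 with Gm45355. The values of these 4 genes are uncertain to that extent.

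Per length of annotated exon, the second-loop repressor Nr1d2 was the most abundant clock transcript and Per2 the least abundant at each timepoint. The mean level of Nr1d2 was 19.3 ± 2.53 RPKM (normalized CPM per kilobase of annotated exon, SD, n = 6) at D20 and 22.4 ± 2.75 at D30. Clock followed with 14 ± 0.52 RPKM at D20 and 16.4 ± 1.32 at D30. All 6 MROs lay higher for Nr1d2 than any did for Clock at each of the 4 timepoints. At the bottom of the order Per2 stood at 1.79 ± 0.412 RPKM at D20 and 1.55 ± 0.527 at D30, and its range overlapped that of the gene above it each time.

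The middle of the order moved with the day. At D20 the means fell from Dbp (11.3 RPKM) through Cry1 (8.81), Arntl (5.72), Per3 (4.26), Cry2 (3.06) and Per1 (2.61) to Nr1d1 (1.94). Of these neighbours only Cry1 and Arntl had ranges that did not touch. At D25 Arntl, at 10.9 ± 1.24 RPKM, overlapped both Dbp and Cry1. At D30 Cry2, at 5.50 ± 0.755 RPKM, overlapped Per3, at 5.13 ± 0.63 RPKM. Cry2 had passed Per3 in the mean by D25, at 3.78 against 3.55 RPKM, with ranges that overlapped. Nr1d1 had likewise passed Per1 in the mean by D25, at 2.68 against 2.50 RPKM. At D30 Nr1d1 stood at 3.76 ± 0.445 and Per1 at 2.66 ± 0.723 RPKM, and their ranges overlapped on both days.

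**Figure D1:**
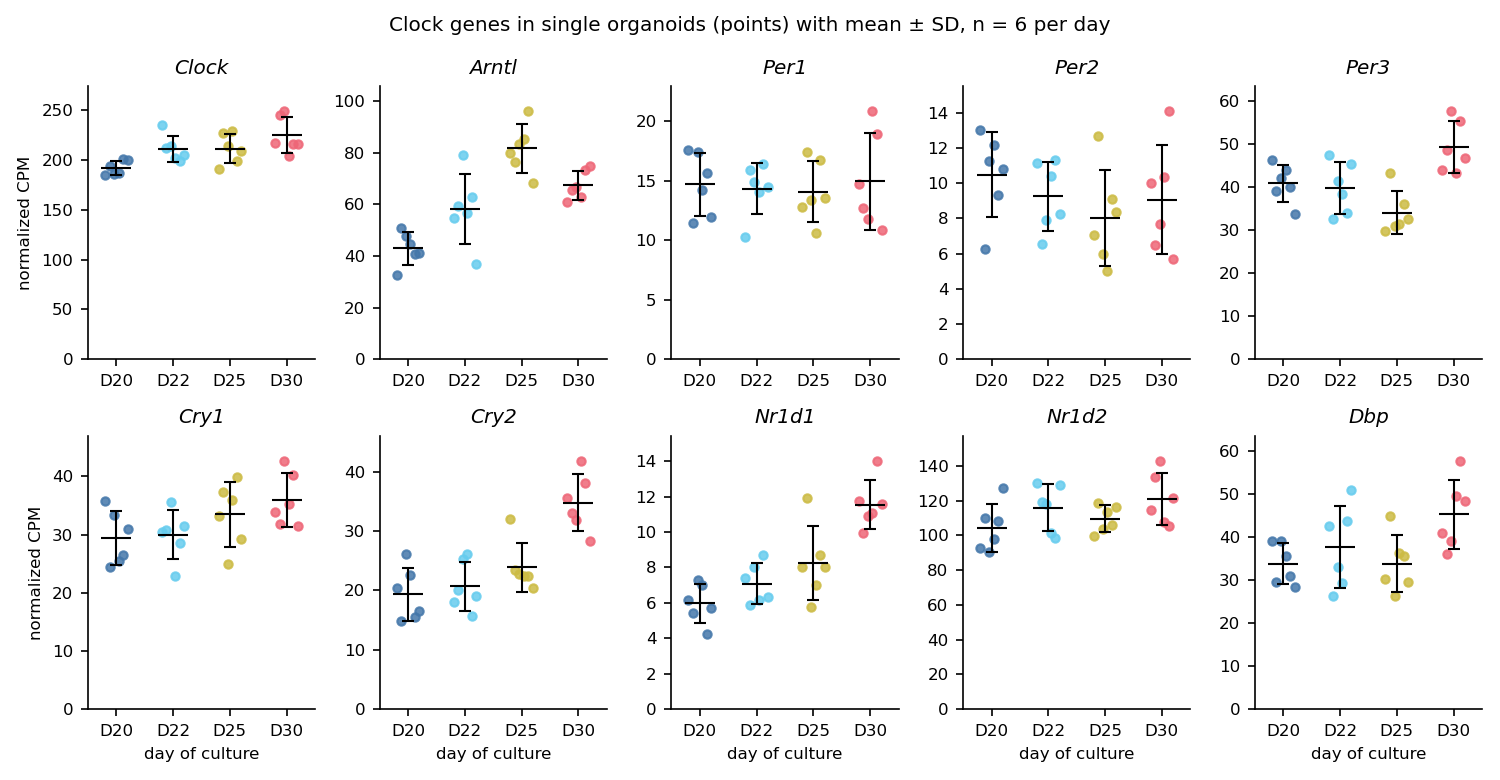
Level of each clock gene (y axis, normalized CPM, from 0) at 4 days of culture (x axis). Points are single MROs, black bars the mean with SD of 6. Arntl reaches its highest mean, 81.7 normalized CPM, at D25, Cry2 and Nr1d1 are highest at D30, and the points of Per1 and Per2 overlap at all days.

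Within the activating pair, Arntl rose from D20 to D25 while Clock moved little. Levels from here on are in normalized CPM, which scales each MRO by edgeR's TMM factor and does not correct for gene length. Arntl spanned 32.7 to 50.9 around a median of 42.9 in the D20 MROs, 37.1 to 79.0 around 58.1 in those of D22, 68.4 to 96.3 around 81.7 in those of D25, and 61.0 to 74.9 around 66.2 in those of D30. Every MRO of D25 and of D30 lay above every MRO of D20. The log2 fold change was 0.93 ± 0.13 (SE) for D25 against D20, with an edgeR adjusted p of 2.02e-06, and 0.65 ± 0.13 for D30 against D20, with an edgeR adjusted p of 0.000136. Neither part of the climb passed alone, at a log2 fold change of 0.44 ± 0.13 for D22 against D20 (edgeR adjusted p = 0.0391) and 0.49 ± 0.13 for D25 against D22 (edgeR adjusted p = 0.0107). The latter passed in 9 of 31 alternative settings, DESeq2 and the replicate block among them, with an adjusted p of 0.0015 to 0.0312 over them all. From D25 to D30 the log2 difference was -0.28 ± 0.13 and did not pass (edgeR adjusted p = 0.231, unadjusted 0.036), with 4 of 6 MROs of D30 below all of D25.

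Clock spanned 185 to 201 around a median of 191 in the D20 MROs, 199 to 235 around 208 in those of D22, 191 to 229 around 211 in those of D25, and 204 to 249 around 217 in those of D30. All MROs of D30 lay above all MROs of D20, but by a small step, a log2 difference of 0.23 ± 0.07 with an edgeR adjusted p of 0.0130. It passed in 4 of 31 alternative settings, and its adjusted p ran from 0.000635 with DESeq2 to 0.126 with annotated genes alone in the scaling.

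Among the Period genes, which encode inhibitors of the CLOCK and ARNTL pair, Per3 rose between D25 and D30 and no difference in Per1 or Per2 passed. Per3 spanned 33.8 to 46.2 around a median of 41.1 in the D20 MROs, 32.7 to 47.4 around 39.9 in those of D22, 29.9 to 43.2 around 32.0 in those of D25, and 43.3 to 57.8 around 47.7 in those of D30. The lowest MRO of D30, at 43.28, lay just above the highest of D25, at 43.23. The log2 fold change for D30 against D25 was 0.53 ± 0.11 (edgeR adjusted p = 0.00279). Without D30 replicate 3 the adjusted p was 0.0104, and without a filter on low counts, where more features share the adjustment, it was 0.0136. Since D25 was the lowest day, the difference between D30 and D20 was smaller, a log2 fold change of 0.27 ± 0.11 (edgeR adjusted p = 0.0627).

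Per1 stayed between 10.3 and 20.9 in all 24 MROs, with medians of 14.9, 14.7, 13.5 and 13.7 from D20 to D30. Per2 was lower and more scattered, between 5.04 and 14.1, with medians of 11.1, 9.32, 7.71 and 8.85. The 4 timepoints overlapped for both genes. The log2 fold changes for D30 against D20 were 0.02 ± 0.17 for Per1 (edgeR adjusted p = 0.929) and -0.21 ± 0.23 for Per2 (edgeR adjusted p = 0.501). The direction for Per1 turned with the scaling, to -0.08 with annotated genes alone.

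The Cryptochrome genes, which encode the strongest inhibitors of the activating pair, parted from each other. Cry2 spanned 14.9 to 26.1 around a median of 18.5 in the D20 MROs, 15.6 to 26.1 around 19.5 in those of D22, 20.4 to 32.1 around 22.6 in those of D25, and 28.3 to 41.8 around 34.3 in those of D30. All MROs of D30 lay above all of D20 and of D22, and 4 of 6 lay above all of D25. The log2 fold change was 0.85 ± 0.15 for D30 against D20 (edgeR adjusted p = 4.03e-05) and 0.75 ± 0.15 for D30 against D22 (edgeR adjusted p = 0.000244). For D30 against D25 it was 0.54 ± 0.15 and did not pass (edgeR adjusted p = 0.0223). The highest MRO of D25, replicate 1 at 32.1, stood apart from the other 5, and without it this difference was 0.64 and passed (edgeR adjusted p = 0.0064).

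Cry1 spanned 24.5 to 35.7 around a median of 28.7 in the D20 MROs, 22.8 to 35.5 around 30.7 in those of D22, 24.9 to 39.9 around 34.6 in those of D25, and 31.5 to 42.7 around 34.6 in those of D30. The ranges of all 4 timepoints overlapped, and the log2 fold change for D30 against D20, 0.29 ± 0.13, did not pass (edgeR adjusted p = 0.0781).

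Of the REV-ERB repressors, which act on Arntl, Nr1d1 rose to D30 and Nr1d2 did not pass. Nr1d1 spanned 4.27 to 7.29 around a median of 5.93 in the D20 MROs, 5.86 to 8.70 around 6.87 in those of D22, 5.74 to 11.9 around 8.05 in those of D25, and 9.97 to 14.03 around 11.3 in those of D30. These values rest on 60 to 215 counts per MRO. All MROs of D30 lay above all of D20 and D22, with a log2 fold change of 0.95 ± 0.18 against D20 (edgeR adjusted p = 6.97e-05) and 0.71 ± 0.18 against D22 (edgeR adjusted p = 0.00228). The step from D25 to D30, 0.49 ± 0.17, did not pass (edgeR adjusted p = 0.0955). Thra, the thyroid hormone receptor gene that shares exon bases with Nr1d1, had 1280 to 3407 counts and a log2 fold change of 0.35 ± 0.18 for D30 against D20 (edgeR adjusted p = 0.134), and its correlation with Nr1d1 among MROs of a day was 0.158.

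Nr1d2 spanned 90.2 to 127 around a median of 103 in the D20 MROs, 98.6 to 130 around 119 in those of D22, 99.5 to 119 around 110 in those of D25, and 106 to 143 around 118 in those of D30. The timepoints overlapped throughout, and the log2 fold change for D30 against D20 was 0.22 ± 0.10 (edgeR adjusted p = 0.0823).

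Dbp, the output factor, spanned 28.4 to 39.2 around a median of 33.3 in the D20 MROs, 26.3 to 50.9 around 37.9 in those of D22, 26.2 to 44.9 around 32.9 in those of D25, and 36.0 to 57.7 around 44.5 in those of D30. Of the 6 MROs of D30, 4 lay above all of D20. The log2 fold change of 0.42 ± 0.15 did not pass (edgeR adjusted p = 0.0290), and DESeq2 placed it at an adjusted p of 0.00911. Sphk2, which shares exon bases with Dbp, had 83 to 233 counts and a log2 fold change of 0.16 ± 0.20 (edgeR adjusted p = 0.577), and its correlation with Dbp among MROs of a day was 0.464.

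**Figure D2:**
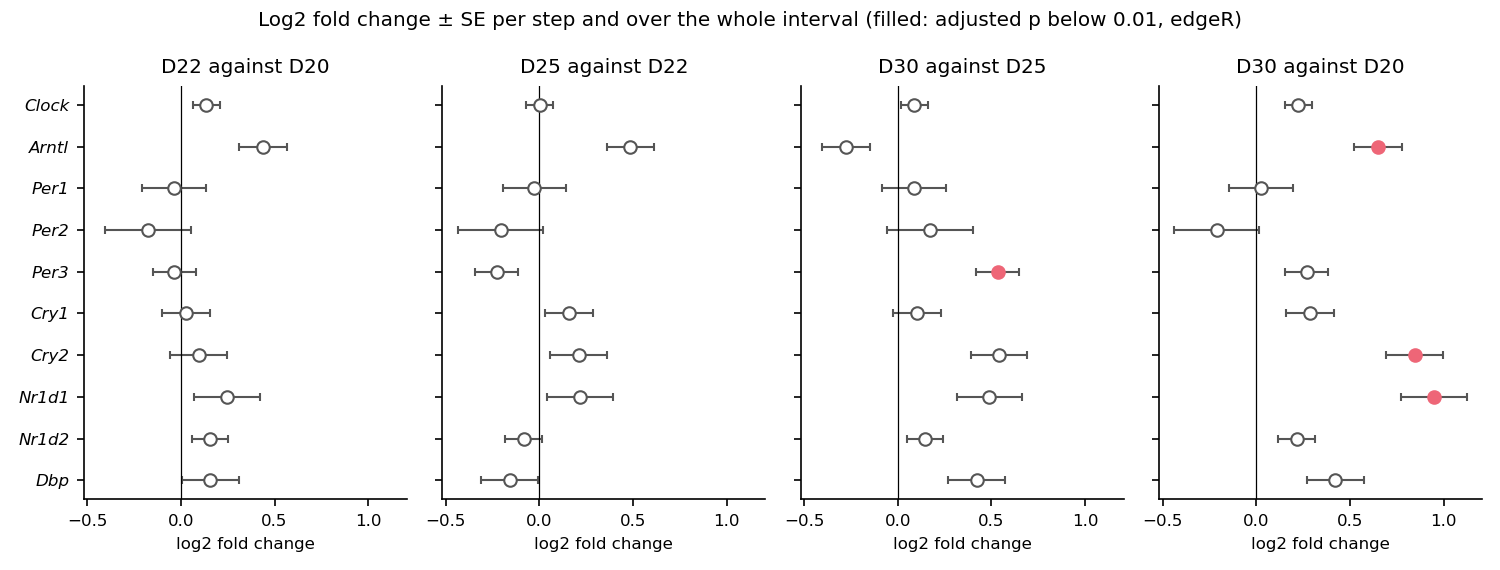
Log2 fold change (x axis) of each clock gene for the 3 steps and for D30 against D20. Points are edgeR estimates with SE from 24 MROs, filled where the adjusted p was below 0.01. One gene, Per3, passed in a single step, and 3 genes, Arntl, Cry2 and Nr1d1, passed over the whole interval, with log2 fold changes of 0.65, 0.85 and 0.95.

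Counted over the list, 4 of 10 genes passed the joint test of any difference among the 4 timepoints, namely Arntl, Cry2, Nr1d1 and Per3, beside 27.2% of all tested features and 43.9% of the annotated genes among them, the class to which the clock genes belong. None passed for D22 against D20 (1.90% of features, 3.32% of annotated genes) or for D25 against D22 (5.28% and 10.2%) in edgeR, where unadjusted p-values below 0.05 were reached by Arntl alone, and DESeq2 passed none and Arntl, respectively. Per3 passed for D30 against D25 (3.51% and 7.38%), Arntl for D25 against D20 (15.1% and 25.2%), and Cry2 and Nr1d1 for D30 against D22 (21.5% and 35.5%). Between D20 and D30 the share was 3 of 10, beside 26.8% of all features and 41.8% of the annotated genes. DESeq2 added Clock and Dbp, and it passed 14133 of the 46949 features there against 12592 in edgeR. With 10 genes these shares are coarse, and neither an excess nor a lack of clock genes can be read from them. All 3 genes that passed in edgeR were higher at D30, where 13.9% of all features were higher and 13.0% lower. Clock, Arntl, Cry2 and Nr1d1, 4 of 10, had D20 and D30 values that did not overlap, which held for 18.9% of all tested features. That share was not computed for annotated genes alone, so no excess can be read from it.

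Ratios of related genes within a library do not depend on how libraries are scaled, so 5 of them were compared between D20 and D30 with an exact permutation test (two-sided, 6 MROs against 6, smallest possible p = 0.002165). They are ratios of counts plus 0.5 and are not corrected for length. Cry1 had 1.54 times the reads of Cry2 at D20 and 1.03 times at D30 (geometric means), a log2 difference of -0.57 (exact permutation p = 0.00866, adjusted over the 5 ratios 0.0144). At D20 the log2 ratio lay between 0.18 and 0.90, and at D30 between -0.25 and 0.42. The shift between the Cryptochromes was thus larger than the SD among MROs, 0.287 at D20 and 0.229 at D30, but the ranges overlapped.

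The Clock to Arntl ratio was 4.51 at D20, 2.60 at D25 and 3.33 at D30, and all D30 MROs lay below all D20 MROs. The log2 difference of -0.44 reached the smallest p of the exact permutation test, 0.00217 (adjusted 0.0108). The Nr1d1 to Nr1d2 ratio rose from 0.0571 to 0.0956, a log2 difference of 0.74 (exact permutation p = 0.00866, adjusted 0.0144). Per1 to Per2 (log2 difference 0.24, exact permutation p = 0.154, adjusted 0.154) and Per3 to Per2 (log2 difference 0.51, exact permutation p = 0.0628, adjusted 0.0785) did not pass 0.05. The Per3 to Per2 ratio passed without D20 replicate 2 (adjusted exact permutation p = 0.0217) or without D30 replicate 4 or 5 (adjusted exact permutation p = 0.0487 each).

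**Figure D3:**
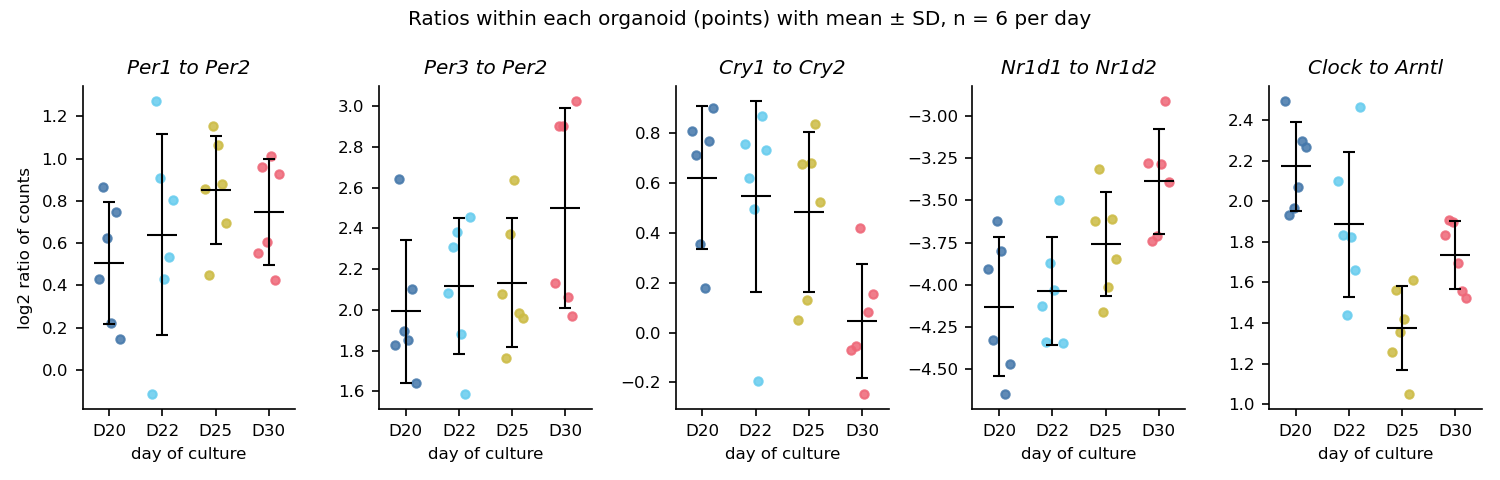
Log2 ratio of the counts of related clock genes (y axis, own scale per panel) at 4 days of culture (x axis). Points are single MROs, bars the mean with SD of 6. The Clock to Arntl points of D30 all lie below those of D20, and the Cry1 to Cry2 mean falls from 0.62 to 0.05.

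Organoids of one day also differed from each other, and the clock genes differed widely in how much. The SD of log2 normalized CPM within timepoints was 0.092 for Clock, and 0.9% of the 10924 genes with a mean of at least 100 counts had a smaller one. It was 0.161 for Nr1d2 and 0.188 for Per3, and the median gene had 0.235. Arntl and Cry1 lay near that median, at 0.233 and 0.219. Per2 was the most scattered, at 0.418, and 86.3% of genes had a smaller SD, but it had few reads, 91 to 216 per MRO. Per1, Dbp, Cry2 and Nr1d1 lay at 0.293, 0.283, 0.264 and 0.264.

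The 45 pairs of clock genes were correlated over the 24 MROs after each timepoint's mean had been removed, with 100000 permutations within timepoints and adjustment over the 45. The closest pair was Clock with Nr1d2, at r = 0.756 (rho = 0.771, permutation p = 1e-05, the smallest possible, adjusted p = 0.00045), with r from 0.698 to 0.911 in the single timepoints of 6 MROs each. Without the 2 MROs farthest from the median of Clock it was 0.691. Over the same MROs Clock and Nr1d2 both followed the percent of reads assigned to no feature, with r = 0.603 and 0.458, and with that percent removed from both genes r was 0.676.

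The other pairs that passed linked Per1, Per2, Nr1d1 and Dbp. Per2 with Nr1d1 gave r = 0.664 (rho = 0.693, permutation p = 0.001, adjusted p = 0.0225) and 0.498 to 0.889 in single timepoints. Nr1d1 with Dbp gave r = 0.630 (rho = 0.625, permutation p = 0.00186, adjusted p = 0.0279) and 0.420 to 0.838. Per1 with Per2 gave r = 0.619 (rho = 0.617, permutation p = 0.00421, adjusted p = 0.0474), but the pair was not alike on each day, at -0.443 in D22 and 0.654, 0.910 and 0.859 in D20, D25 and D30. Without the 2 MROs farthest from the median of the first gene, r was 0.676, 0.508 and 0.749 for these 3 pairs. Per1 went against sequencing depth within timepoints, with r = -0.635 to log2 counted reads, where Per2 had -0.328.

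No pair with Arntl passed. Its correlations with Nr1d1, Dbp and Per2, the transcripts that run in antiphase to it in a synchronous tissue, were 0.198 (rho = 0.214, permutation p = 0.378), -0.250 (rho = -0.138, permutation p = 0.365) and -0.210 (rho = -0.310, permutation p = 0.297), all with an adjusted p of at least 0.513. A phase shared by the MROs of a day is removed with that day's mean, so these values cannot show whether the MROs kept time together. Arntl with Clock gave 0.027 (rho = -0.094, permutation p = 0.898, adjusted p = 0.94). Of the 45 pairs 30 were positive and 15 negative, and the lowest, Per1 with Nr1d2 at -0.586 (rho = -0.534, permutation p = 0.00608), had an adjusted p of 0.0547.

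**Figure D4:**
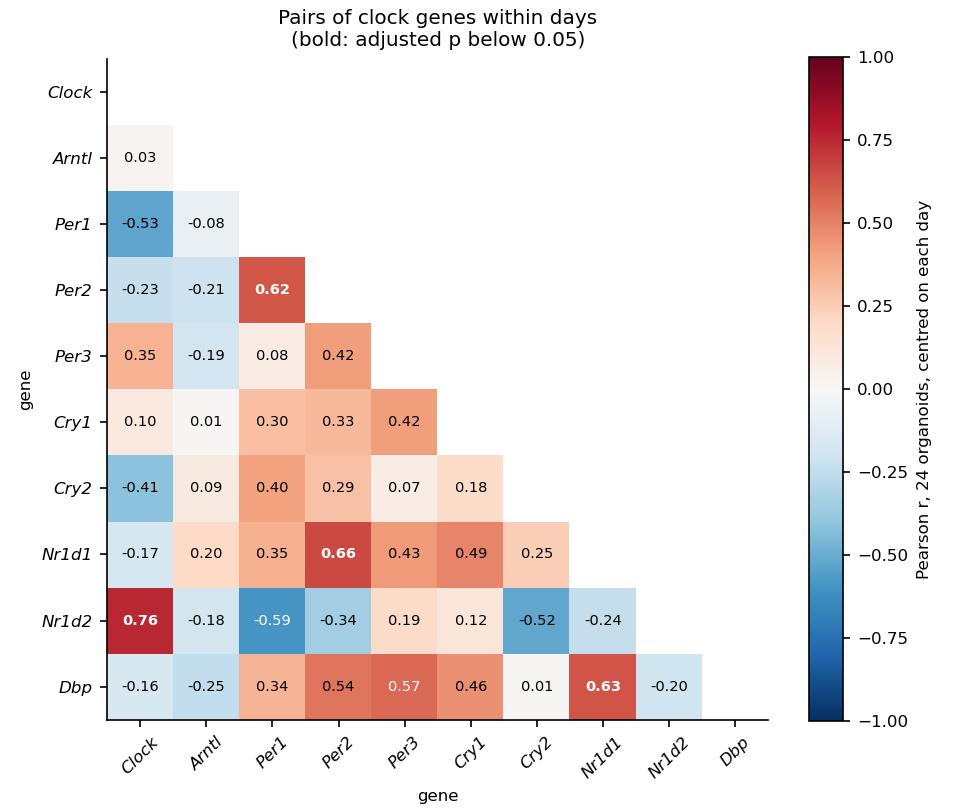
Pearson r (colour and number, from -1 to 1) of each pair of clock genes over 24 MROs after the mean of each day was removed. The 4 pairs in bold had an adjusted permutation p below 0.05, the highest being Clock with Nr1d2 at 0.76, and the Arntl cells lie between -0.25 and 0.20.

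The genes whose spread within timepoints was most like that of a clock gene, out of 10924 compared over the 24 MROs, are given as a description. For Clock they were Tnpo1 (r = 0.825), Nr1d2 (0.756) and Nbeal1 (0.721), and for Nr1d2 they were Tigd2 (0.794), Clk1 (0.771) and Clock (0.756), so this pair was among the nearest for both. Among the closest to Arntl were Ptp4a3 (0.841) and Ogdhl (0.839). Per3 was closest to Crlf3 (0.872), Crebrf (0.817) and Inpp5k (0.785), and Cry2 to Insyn1 (0.803), Mapk8ip2 (0.788) and Evl (0.778). For Nr1d1 they were Zfp14 (0.779), Tacc2 (0.723) and Ints1 (0.712), and for Dbp Hook2 (0.822), Gtf2e2 (0.797) and Fam114a2 (0.783). Per1 was closest to Gm23686 (0.816), Gm22513 (0.814) and Lrfn1 (0.797), Per2 to Larp1 (0.740), Pcdh1 (0.735) and Morc2a (0.735), and Cry1 to Ppp1cc (0.705), Mms19 (0.703) and Cldn12 (0.691). No clock gene other than Clock and Nr1d2 was among the nearest 3 of another.

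Genes that work with the clock were followed in 8 lists for D30 against D20, where 26.8% of features and 41.8% of annotated genes passed. In the activating arm 2 of 3 tested genes rose, Arntl and Npas2, the paralog of Clock. The other was Clock, so the median log2 fold change of the arm, 0.65, is the value of Arntl itself. The median was -0.04 over all features and 0.10 over annotated genes. Npas2 was scarce, from 1 to 12 counts at D20 and 2 to 46 at D30, and its log2 fold change of 2.04 ± 0.58 (edgeR adjusted p = 0.00592) was lost in 8 of 31 alternative settings, among them the removal of D20 replicate 1, 2, 4 or 6 or of D30 replicate 1, 2 or 5. Npas2 did not pass the joint test of the 4 timepoints (edgeR adjusted p = 0.0236). Arntl2 had 0 to 23 counts and was not tested.

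In the inhibiting arm 2 of 8 rose, Cry2 and Bhlhe41 (DEC2), a repressor that binds E-boxes. Bhlhe41 ran from 12.4 to 29.2 normalized CPM at D20 and from 47.7 to 85.2 at D30, without overlap, a log2 fold change of 1.63 ± 0.20 (edgeR adjusted p = 1.18e-07). Its paralog Bhlhe40 passed the joint test (edgeR adjusted p = 0.00829), with a median of 68.0 at D22 between 40.0 at D20 and 39.8 at D25. The D22 MROs were scattered, from 35.9 to 131, and overlapped those of D20 and D25. Neither D22 against D20 (edgeR adjusted p = 0.0824) nor D25 against D22 (edgeR adjusted p = 0.0328) passed, while D30 against D22 did (edgeR adjusted p = 0.00518). The median log2 fold change of the 8 was 0.23.

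Rora and Rorb, whose proteins act on Arntl at the sites where the REV-ERB proteins repress it, went in different directions. Rorb, prominent in photoreceptor precursors, fell from between 957 and 1146 at D20 to between 283 and 462 at D30, with a log2 difference of -1.63 ± 0.09 (edgeR adjusted p = 8.76e-15). Rora rose, by 0.44 ± 0.10 (edgeR adjusted p = 0.000389). With Nr1d1 and Nr1d2, 2 of these 4 nuclear receptors rose and 1 fell, with a median of 0.33.

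Of the relatives of Dbp, Tef and Hlf rose and Nfil3, the repressor at the same D-boxes, had a log2 difference of -0.18 (edgeR adjusted p = 0.359). Tef ran from 83.6 to 108 at D20 and from 116 to 138 at D30 (log2 fold change 0.39 ± 0.08, edgeR adjusted p = 0.000397). Hlf rose by 0.71 ± 0.15 (edgeR adjusted p = 0.000353). The list had 2 of 4 rise and a median of 0.41.

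Among 7 kinases and ubiquitin ligase genes of the clock 3 rose and 1 fell, with a median of 0.29. The F-box gene Btrc, whose protein marks PER for breakdown, rose by 0.76 ± 0.11 (edgeR adjusted p = 1.07e-06). Fbxl21 passed the joint test (edgeR adjusted p = 0.00523) and had a log2 difference of -0.70 ± 0.24 for D30 against D20 that did not pass (edgeR adjusted p = 0.0226). Csnk1e, a kinase of PER, fell by 0.63 (SE 0.12, edgeR adjusted p = 0.000151), and Usp2, a deubiquitinase gene and common clock output, rose from between 5.44 and 10.3 to between 16.5 and 25.7, a log2 fold change of 1.44 ± 0.17 (edgeR adjusted p = 6.11e-08).

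Of 6 tested outputs that follow the clock in many tissues 3 rose (Usp2, Tef and Pdk4) and 1 fell (Nampt), with a median of 0.36. Nampt, the enzyme of NAD salvage, fell by 0.63 (SE 0.17, edgeR adjusted p = 0.0031), a call lost without D20 replicate 1 (edgeR adjusted p = 0.011). Pdk4 rested on 0 to 11 counts at D20 and 7 to 77 at D30. Among 9 genes of rhythmic output and light input of the retina only Drd4 and Adcy1 had enough reads to be tested, and both rose. Drd4, the dopamine receptor of photoreceptors, ran from 0 to 11 counts at D20 and from 107 to 199 at D30, and Adcy1, an adenylyl cyclase, from 64.0 to 116 normalized CPM at D20 and from 383 to 565 at D30, which gave a log2 fold change of 2.52 ± 0.16 (edgeR adjusted p = 2.17e-13). Aanat and Asmt, the enzymes of melatonin synthesis, had at most 8 and 3 counts in any MRO, the melanopsin gene Opn4 at most 11, Th at most 12, Mtnr1a at most 4, Opn5 at most 3, and Mtnr1b 0 in all 24, where 3 counts, the limit that a count of 0 allows, would be 0.154 to 0.22 CPM.

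Serum and glucocorticoids can reset the clock, and of 9 genes that they induce 4 rose and 2 fell, with a median of 0.16. Sgk1 rose by 2.96 ± 0.38 (edgeR adjusted p = 1.97e-07), from between 0.142 and 4.61 to between 11.9 and 24.6 normalized CPM. Fos and Junb rose by 1.04 ± 0.27 (edgeR adjusted p = 0.00295) and 1.00 ± 0.23 (edgeR adjusted p = 0.000815), the call on Fos being lost without D30 replicate 1 (0.87, edgeR adjusted p = 0.013). Klf9 rose by 0.30 ± 0.09 (edgeR adjusted p = 0.00713), a call lost in 11 of 31 alternative settings. Tsc22d3 fell by 0.48 (SE 0.15, edgeR adjusted p = 0.00938), a call lost in 24 of 31, and Dusp1 by 0.74 (SE 0.23, edgeR adjusted p = 0.00984), lost in 23 of 31. In 8 alternative settings 3 genes of this list passed in place of 6.

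**Figure D5:**
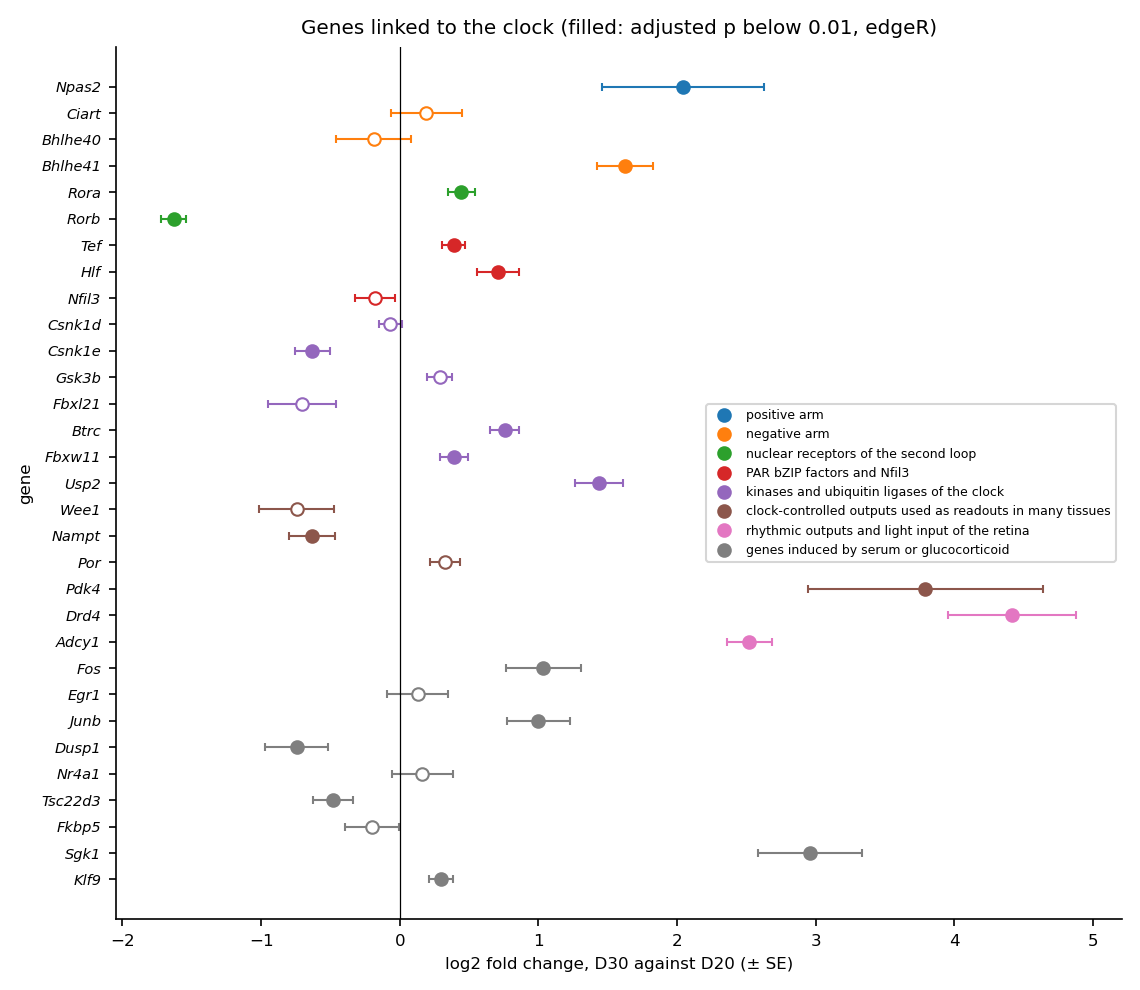
Log2 fold change for D30 against D20 (x axis, with SE) of the tested genes linked to the clock, coloured by list (a gene in more than 1 list has its first colour). Filled points had an edgeR adjusted p below 0.01. Drd4, at 4.42, lies farthest to the right, and Rorb, at -1.63, farthest to the left.

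Markers of cell types moved with the days too, and their part in the values of the clock genes was not tested. The summed level of 6 rod markers was 680 to 930 normalized CPM at D20 and 2477 to 4483 at D30 (5 of 6 rose), and that of 6 progenitor markers 734 to 1001 and 304 to 415 (5 of 6 fell). For 5 Müller glia markers the sums were 411 to 568 and 1048 to 3912 (4 of 5 rose), and for 5 bipolar markers 26.9 to 35.2 and 204 to 314 (5 of 5 rose). The 4 cone markers (17.6 to 40.5 and 19.8 to 51.2, of 3 tested 2 rose and 1 fell), 4 amacrine markers (42.4 to 87.2 and 64.0 to 140, 1 of 4 rose) and 4 ganglion cell markers (84.2 to 161 and 48.8 to 250, 3 of 4 fell) moved less in sum. The sum does not stand for the single genes of the ganglion list, whose median log2 fold change was -2.41. The amacrine sum had a median of 70.5 at D20, 198 at D25 and 105 at D30, and 3 of its 4 genes fell from D25 to D30. Markers of cells outside the neural retina varied between MROs, with pigment epithelium at 9.99 to 49.2 and 35.0 to 2673 (2 of 4 tested rose, and the defining marker Rpe65 had at most 3 counts), cortex type neurons at 11.7 to 190 and 6.98 to 206 (0 of 4 passed, median log2 fold change 0.86) and fibroblasts or vessels at 1.14 to 11.2 and 9.98 to 159 (4 of 4 rose). The microglia markers summed to at most 1.24 in any MRO.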

How the data were processed

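Whole single MROs of D20, D22, D25 and D30 (6 each) were grouped by their labelled day. The authors aligned ribosome-depleted, strand-specific reads to GRCm38/mm10 with HISAT2, assembled additional transcripts with StringTie 1.3.3 and deposited counts per gene or assembled locus from HTSeq 0.6.1, 1 table per MRO. Between 35.0% and 45.6% of the reads were assigned to no feature, and these stayed out of library sizes and tests. Replicates come from 1 experiment, so p-values measure only the spread between its MROs. All 60 pairs of same-day MROs differed by more than sampling noise, with a chi-square of no less than 6.35 times its degrees of freedom. The labels do not say whether a sample number marks a shared culture. Same-numbered MROs correlated between -0.081 and 0.187 after group means were removed, so the fit had no block.

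From the deposited counts, edgeR 4.0.16 (R 4.3.3) with TMM scaling was fitted to all 24 MROs at a base mean of at least 10, with quasi-likelihood tests, Benjamini-Hochberg adjustment over all features and a threshold of 0.01. SE is the log2 fold change divided by the root of F. RPKM is normalized CPM per kilobase of GENCODE exons. The fit was tried on simulated counts with a preset spread and fewer changed features than were called here. That checks the code and not the calls reported. Ratios (pseudocount 0.5) and correlations were computed in Python 3.11.15 with scipy. Alternatives were DESeq2 1.42.0, its size factors, no filter, filterByExpr, annotated genes alone, a replicate block, the compared timepoints alone and each MRO left out.

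The text names all 10 clock genes, from each of 8 lists up to 4 genes past the joint test with the largest change between D30 and D20, the 3 genes best correlated with each clock gene, and 11 lists of cell type markers in ranges. Npas2, Arntl2, Csnk1e, Nfil3, Klf9, Dusp1, Thra, Sphk2 and the genes with too few reads were named after their values were seen. A few genes that these rules name are not reported here and were left out of the list counts. The clock genes and lists were chosen with earlier results of these data known.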

Additional observations from a re-analysis of the deposited data

Results flagged for a closer look

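Of 40 sets of 6 MROs, 10 clock genes at 4 timepoints, 1 held an MRO that stood apart. It was Cry2 at D25, where replicate 1 had 32.1 normalized CPM and the nearest of the other MROs 23.4, a gap of 0.745 of the whole range, past Dixon's 95% limit for 6 values. Chance alone marks about 1 set in 20. The same MRO was the lowest of its day for Clock, Nr1d2 and Per3, at 191, 99.5 and 29.9 normalized CPM, without passing that limit for them.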

How the results depend on the processing

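Across 31 alternatives the rises of Arntl, Cry2 and Nr1d1 from D20 to D30, of Arntl from D20 to D25, and of Cry2 and Nr1d1 from D22 to D30 kept their direction and stayed past 0.01. The number of clock genes past 0.01 for D25 against D22 was 1 in place of 0 with DESeq2, DESeq2 size factors, no filter on low counts, filterByExpr and the replicate block, Arntl each time. For D30 against D25 it was 2 with DESeq2 and 0 with no filter in place of 1. For D30 against D20 DESeq2 passed 14133 of 46949 features in place of 12592. The number of clock genes past 0.01 was then 5 in place of 3. With single MROs left out these counts ranged from 0 to 1 for D22 against D20 (1 without D22 replicate 6), 0 to 1 for D25 against D22, 0 to 2 for D30 against D25, 3 to 4 for D30 against D20, 1 to 1 for D25 against D20, 2 to 2 for D30 against D22, and 3 to 4 for the joint test. The cause of these shifts was not tested. With annotated genes alone, the median log2 fold change of the genes for D30 against D20 moved from 0.10 to 0.01, and Per1 turned from 0.02 to -0.081; without single MROs Per1 lay between -0.093 and 0.101. The log2 ratio differences ranged with single MROs left out from 0.17 to 0.31 for Per1 to Per2, 0.40 to 0.64 for Per3 to Per2, -0.66 to -0.51 for Cry1 to Cry2, 0.64 to 0.85 for Nr1d1 to Nr1d2 and -0.48 to -0.37 for Clock to Arntl. Of the 4 correlated pairs none moved by more than the SD of its 4 timepoints under the variance-stabilized values, without the 2 farthest MROs or with a replicate block (Clock with Nr1d2 0.85, paired numbers removed), nor under 2 adjustments chosen after seeing the data, for the first component of all genes (Clock with Nr1d2 0.74) and for the percent of reads on no feature. For Per1 with Per2 that SD was wide, with r from -0.443 at D22 to 0.910 at D25, so staying within it says little. The r of this pair under these settings lay between 0.606 and 0.749. The correlations of same-numbered MROs gave no pairing, and the replicate block changed no other call on a clock gene. Genes with a base mean under 10, such as Arntl2, Aanat and Opn4, were set aside by the filter of the main fit and have no test reported here.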
